A study of Mus musculus with 12 samples.

Results

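Interferon response genes were followed across 6 microarray hybridizations of the mouse line MEL (murine erythroleukemia), red cell precursors held immature until dimethyl sulfoxide (DMSO) or another inducer sets off hemoglobin synthesis. The list held 35 genes chosen by symbol, and a gene was read at the probe set annotated to it alone, or, where there were several, at the one with the highest mean over the 6 arrays. Of the 35 genes, 33 had such a probe set, out of 18193 genes in the whole series. The only probe set annotated to Isg15 is shared with another gene and was not used, and no probe set is annotated to Ifi44. The 2 groups were wild type MEL cells and MEL cells with knockdown of G9a, an enzyme that methylates lysine 9 of histone H3 and is the product of Ehmt2, with 3 arrays each, numbered 1 to 3. By the protocols, which read the same for both groups, cells were kept for 4 days in 2% DMSO, and knockdown was switched on by doxycycline at 5 µg/ml. They do not say whether wild type cells also received doxycycline, nor which sequence was used for the knockdown, nor whether a knockdown line was 1 clone. The protocols name no separate cultures behind the replicates. The p-values below therefore reflect array-to-array spread, some of which may be technical.

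Interferons are secreted proteins that cells release when they sense foreign or misplaced nucleic acid. Type I interferon binds a receptor whose kinases phosphorylate STAT proteins, and a complex that holds STAT2 and IRF9 then enters the nucleus and switches on genes that carry an interferon-stimulated response element. The products include sensors of viral RNA, enzymes that degrade or edit RNA or block translation, and a ubiquitin-like modifier, ISG15, with the enzymes that attach and remove it. Many of these genes keep a low basal level in the absence of infection.

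A core of that response element, GAAA, any 2 bases and GAAA, or on the other strand TTTC, any 2 bases and TTTC, was searched in RefSeq promoter windows of 300 bases (build GRCm38.p6, 250 bases before to 50 after each annotated start). Windows were listed for 26 of the 35 genes, and 11 of these (42.3%) held at least 1 match in a window, against 3.99% of the 27025 genes in the table. At least 2 matches in a window were found for 5 of the 26 (19.2%), against 0.266% of all genes. Overlapping matches were counted separately for all genes. The matches overlapped in Oas1a, Bst2 and Isg15 and lay apart in Ifit1 and Ifit3. The 11 genes were Oas1a, Oas3, Rsad2, Stat2, Ifit1, Ifit3, Isg15, Ddx58, Ifih1, Bst2 and Eif2ak2. A match is a description of the letters in the window and not of binding. The 250 bases before the start are shown 5′ to 3′ on the gene's strand for 4 genes that stand for different results below, with matches in capitals. Ifit1 (chr19:34640639-34640888, plus strand) has matches but lay below the filter on signal. Oas1a (chr5:120907526-120907775, minus strand) followed the replicate number, and its matches at bases 231 and 237 overlap. Rsad2 (chr12:26456453-26456702, minus strand) and Oasl2 (chr5:114896684-114896933, plus strand) read lower in the knockdown, Rsad2 with 1 match and Oasl2 with none in this window.
Ifit1: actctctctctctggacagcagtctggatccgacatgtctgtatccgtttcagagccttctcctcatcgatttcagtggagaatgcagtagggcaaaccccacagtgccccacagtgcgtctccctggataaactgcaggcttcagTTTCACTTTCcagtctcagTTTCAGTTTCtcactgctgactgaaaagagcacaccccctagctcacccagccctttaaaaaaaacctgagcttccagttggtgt
Oas1a: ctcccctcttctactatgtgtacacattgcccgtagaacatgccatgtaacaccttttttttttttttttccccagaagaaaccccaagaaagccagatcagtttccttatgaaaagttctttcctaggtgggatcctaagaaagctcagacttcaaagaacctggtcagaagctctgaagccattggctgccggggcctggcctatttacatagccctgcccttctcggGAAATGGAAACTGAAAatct
Rsad2: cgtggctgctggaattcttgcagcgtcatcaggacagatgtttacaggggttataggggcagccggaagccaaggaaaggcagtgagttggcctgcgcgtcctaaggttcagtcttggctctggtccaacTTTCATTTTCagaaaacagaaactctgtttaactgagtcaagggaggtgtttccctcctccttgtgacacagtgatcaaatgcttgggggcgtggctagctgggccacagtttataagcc
Oasl2: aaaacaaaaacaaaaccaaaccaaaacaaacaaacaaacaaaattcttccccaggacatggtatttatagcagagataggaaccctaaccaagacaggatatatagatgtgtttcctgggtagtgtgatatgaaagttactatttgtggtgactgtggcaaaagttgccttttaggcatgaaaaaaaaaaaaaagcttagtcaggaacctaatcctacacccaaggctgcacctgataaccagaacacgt

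Values are GCRMA log2 values unless stated, differences are knockdown minus wild type, and errors are SD with n = 3 arrays per group. Ehmt2, the targeted gene, read 9.92, 10.03 and 10.23 in wild type arrays 1 to 3 and 6.67, 7.33 and 7.58 in knockdown arrays 1 to 3 at probe set 1460692_at, so that the groups lay apart. With the replicate number as a block, Ehmt2 fell by 2.87 there (limma adjusted p = 0.0316) and by 2.86 at 1426888_at (limma adjusted p = 0.0278). These were the 2 probe sets called of 17028 tested. Array medians over tested probe sets ranged from 8.09 to 8.20. Of 8 measured erythroid markers, 7 passed the filter on signal, and Hba-a1, the only globin gene among them, did not. The summed level of the 8 ranged from log2 15.70 to 15.83 in wild type and from 15.70 to 15.87 in the knockdown. Tfrc, which had the highest signal and so weighs most in the sum, differed by -0.23. Of the 7, 5 were positive and 2 negative, with a median of 0.15. Klf1 differed by 0.40 (limma adjusted p = 0.241) and Alas2 by 0.20. An unadjusted limma p under 0.05 was found for 1 of the 7, against 13.7% of all probe sets, and 0 were called. None of the 8 fibroblast or endothelial markers passed the filter, nor any of the 9 measured lymphoid markers, of which 8 stayed at or below log2 4 in every array. Of 14 measured myeloid markers, 10 stayed at or below log2 4 in every array and 3 passed the filter, with summed levels of 8.03 to 8.48 in wild type and 8.24 to 8.89 in the knockdown. The 3 were Spi1 and Cebpa, which encode transcription factors, and the receptor gene Csf1r. Spi1 differed by 0.42 (limma adjusted p = 0.364). Cebpa differed by 0.35 (limma adjusted p = 0.325), and by -0.25 in MAS5. Csf1r differed by -0.049. Thus 2 of the 3, Spi1 and Cebpa, had an unadjusted limma p under 0.05, against 13.7% of all probe sets. Of the 3, 0 were called, against 0.0117% of all probe sets. Mpo, Elane, Itgam and Lyz2, which mark mature or maturing myeloid cells, stayed below log2 4. Fcgr3, also on the myeloid list, exceeded log2 4 only in knockdown array 1. It did not pass the filter and differed by 0.43. Of 7 markers of plasmacytoid dendritic cells, a main source of interferon, Siglech, Ly6d and Irf8 stayed below log2 4 in every array. The 4 others, Bst2, Tcf4, Klk1 and Ccr9, carried the summed level of 8.92 to 9.18 in wild type and 9.02 to 9.16 in the knockdown, and Bst2 is itself one of the tested interferon response genes. The part of these cell types in the results below was not tested. In bulk RNA, fewer cells of a type and less RNA per cell cannot be told apart.

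A probe set was tested where it exceeded log2 4 in at least 3 of the 6 arrays, which 24 of the 33 measured interferon response genes did, 23 of them in all 6 arrays. The 9 genes below the filter were Ddx58, Dhx58 and Zbp1, which encode sensors of nucleic acid, Ifit1, Ifit2 and Ifit3, which encode binders of viral RNA, the dynamin-like GTPase genes Mx1 and Mx2, and Rtp4. Just outside the threshold, Dhx58 read 3.30, 3.34 and 4.16 in wild type and 3.34, 3.84 and 3.32 in the knockdown. Just inside it, Oasl1 read 4.84, 4.46 and 4.14 in wild type and 4.95, 4.87 and 4.23 in the knockdown. Signal this dim carries little information on amount, and levels at different probe sets were not compared with each other. Interferon genes themselves were also dim: all 6 measured genes, Ifnb1, Ifna1, Ifna2, Ifna4, Ifna5 and Ifng, stayed below log2 4, with single arrays between 2.01 and 2.77.

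**Figure D1:**
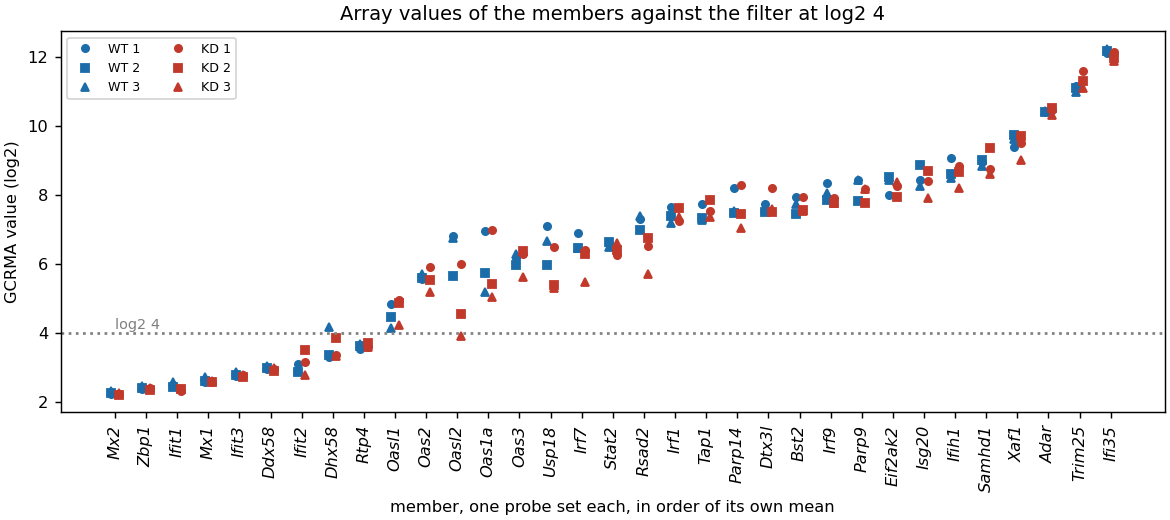
GCRMA log2 values of the 33 measured members in the 6 arrays, wild type in blue and knockdown in red, with symbols for the replicate number and a dotted line at log2 4. The 9 members on the left did not pass the filter, and the 24 others did; levels at different probe sets are not comparable as amounts.

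No interferon response gene passed the threshold between knockdown and wild type, while 4 read at least 0.5 lower in the knockdown: the antiviral genes Oasl2 and Rsad2, the ISG15 protease gene Usp18 and the transcription factor gene Irf7. Differences of -0.5 or lower made up 2.51% of all probe sets, and differences of at least 0.5 in either direction made up 4.53%. The count of members that read at least 0.5 higher was 0, and with 24 members so small a share would leave few or none. With the replicate number as a block, 0 of 24 were called by limma at an adjusted p of 0.05 over all probe sets, where 0.0117% of probe sets were called. The same count was 0 without the block, where 0.00587% were called, and 0 in MAS5 with or without it. At an unadjusted p under 0.05 there were 4 of 24 members in the blocked limma fit, all lower, against 13.7% of all probe sets in either direction and 7.24% lower. Without the block there were 2 members, both lower, against 5.87% in either direction and 3.28% lower. In MAS5 there were 3, of which 2 were lower, with the block (10.6% and 5.06% of all probe sets) and without it (6.47% and 3.01%). The difference was negative in 18 of 24 members, against 51.7% of all tested probe sets, and the median difference was -0.14, against -0.00828 over all probe sets. In MAS5, 17 of 24 were negative, against 47.9%, with a median of -0.10 against 0.00995. The sign differed between the summaries for 5 members, Adar, Irf1, Bst2, Parp9 and Samhd1. Since the list was chosen with earlier results of these data known, these counts are descriptive.

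**Figure D2:**
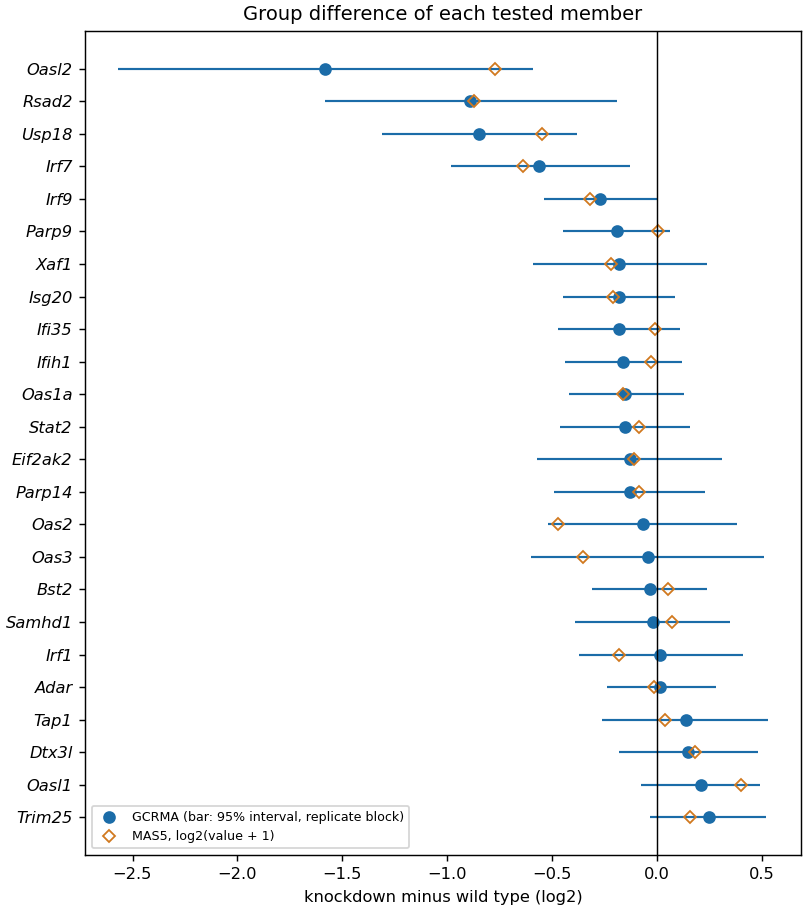
Knockdown minus wild type (log2) for each of the 24 tested members, from GCRMA (blue points, with the 95% interval of the limma fit with the replicate block) and MAS5 (open diamonds). The intervals of Oasl2, Rsad2, Usp18 and Irf7 lie below 0 before adjustment, and those of the other 20 members include 0.

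The lean toward lower values rested largely on knockdown array 3, and in part on wild type array 1. Knockdown array 3 was the lowest of the 6 for 14 of 24 members, against 14.7% of all probe sets, and the highest for 0 of 24, against 16.6%. The other arrays were lowest for 0, 1 and 4 members (wild type 1 to 3; 16.3%, 14.0% and 19.4% of all probe sets) and for 1 and 4 (knockdown 1 and 2; 15.6% and 20.0%). They were highest for 7, 4 and 3 members in wild type (30.3%, 10.2% and 12.6%) and for 6 and 4 in the knockdown (13.2% and 17.1%). The median deviation of the members from their own mean over 6 arrays was -0.32 in knockdown array 3, compared with 0.066 and -0.046 in knockdown arrays 1 and 2, and with 0.23, -0.028 and 0.036 in wild type arrays 1 to 3. Over all tested probe sets the median deviation was -0.00239 in knockdown array 3 and 0.0522 in wild type array 1. Differences between arrays of the same number were negative for 13 of 24 members at number 1, 15 at number 2 and 18 at number 3, against 57.6%, 50.4% and 47.8% of all probe sets. Their medians were -0.028, -0.042 and -0.28, against -0.0472, -0.00233 and 0.0162 over all probe sets. Without replicate 3, 13 of 24 members were negative and the median was -0.075. Without knockdown array 3 alone and without the block, 9 of 24 were negative and the median was 0.033. Without wild type array 1 alone and without the block, 14 of 24 were negative and the median was -0.059. All 3 same-number differences were negative for 7 of 24 members, against 20.6% of all probe sets, and all 3 positive for 2, against 17.3%.

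**Figure D3:**
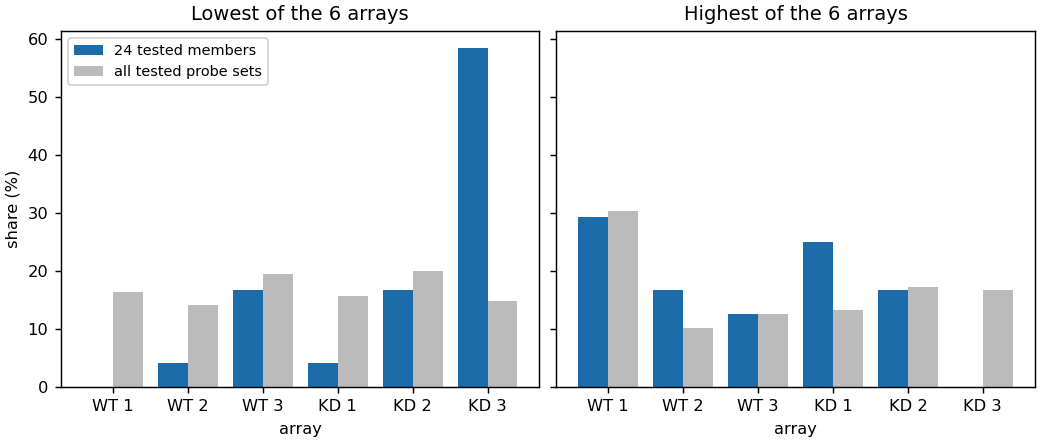
Share (%) of the 24 tested members (blue) and of all tested probe sets (grey) for which a given array was the lowest (left) or the highest (right) of the 6; WT, wild type; KD, knockdown. Knockdown array 3 was the lowest for 14 of 24 members and the highest for none, and wild type array 1 was the highest for 7 of 24, close to the share over all probe sets.

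Among the transcription factors, Irf7, which drives the amplification of type I interferon, read 6.90, 6.46 and 6.44 in wild type arrays 1 to 3 and 6.40, 6.29 and 5.46 in the knockdown. All 3 knockdown arrays lay below all 3 wild type arrays, array 3 by the widest margin, and in MAS5 the groups did not overlap either. The difference was -0.56 (95% interval -0.98 to -0.13, limma adjusted p = 0.296), and -0.34 without replicate 3. For Irf9, the DNA-binding subunit of the interferon-activated complex, the values were 8.33, 7.84 and 8.04 in wild type and 7.91, 7.75 and 7.76 in the knockdown. All 3 same-number differences were negative, but the groups overlapped, and the difference was -0.27 (-0.54 to 0.0072). In MAS5 the Irf9 groups did not overlap, and the difference was -0.32. Stat2, its partner in that complex, read 6.56 ± 0.079 and 6.41 ± 0.17, a difference of -0.15 that turned positive at number 3. At its dimmer tested probe set, 1421911_at, Stat2 differed by -0.21 and was lower in the knockdown at each number. Irf1, a factor induced above all by interferon γ, read 7.63, 7.37 and 7.18 in wild type and 7.24, 7.62 and 7.36 in the knockdown. The Irf1 groups overlapped throughout, and the difference was 0.016 in GCRMA (-0.37 to 0.41) and -0.18 in MAS5.

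Active members of the oligoadenylate synthetase family make, on binding double-stranded RNA, the messenger that activates RNase L. Oasl1 and Oasl2 carry a ubiquitin-like tail. Oasl2 read 6.79, 5.65 and 6.73 in wild type and 5.99, 4.53 and 3.91 in the knockdown. Each knockdown array lay below the wild type array of its number, with differences of -0.80, -1.12 and -2.82, but knockdown array 1 lay above wild type array 2, so the groups overlapped. Oasl2 had the largest difference on the list at -1.58 (-2.57 to -0.59, limma adjusted p = 0.238 with the block and 0.80 without). It was -0.96 without replicate 3 and -0.77 in MAS5, and no fold is given because knockdown array 3 lay below the filter. Its relative Oasl1 was among the 6 members with a positive difference, 0.21 (-0.074 to 0.49), with all 3 same-number differences positive. In MAS5 the Oasl1 difference was 0.40 and the groups did not overlap. Oas2 and Oas3 differed by -0.068 and -0.042, with knockdown array 3 the lowest of 6 for both, and by -0.47 and -0.35 in MAS5.

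Replicate number took a median of 46.3% of the squared deviations of a member over the 6 arrays, against 53.4% over all tested probe sets, and Oas1a was the extreme case. Oas1a read 6.95, 5.73 and 5.17 in wild type arrays 1 to 3 and 6.97, 5.41 and 5.04 in knockdown arrays 1 to 3. Both arrays of replicate 1 were the high ones, and the means over arrays of the same number were 6.96, 5.57 and 5.10. The replicate number accounted for 98.4% of the squared deviations of Oas1a over the 6 arrays and the group for 0.835%, and its difference between groups was -0.15 (-0.42 to 0.13). Replicate 1 arrays were also both above the other 4 for Ifih1, Bst2, Parp14 and Dtx3l, 5 of 24 members in all, against 17.8% of all probe sets, and for 0 members were both below, against 13.3%. The same-number mean was highest at number 1 for 17 of 24 members, at number 2 for 5 and at number 3 for 2, against 44.2%, 28.2% and 27.5% of all probe sets. For 19 of 24 the mean of replicate 1 exceeded that of replicates 2 and 3, against 56.5%. For 20 of 24 members the replicate number took a larger share of the squared deviations than the group, against 76.6% of all probe sets. With 3 numbers against 2 groups, the number would more often take the larger share even without an effect of either. In MAS5, where Oas1a read 418, 334 and 380 in wild type and 584, 312 and 207 in the knockdown, replicate 1 was also the highest in each group.

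**Figure D4:**
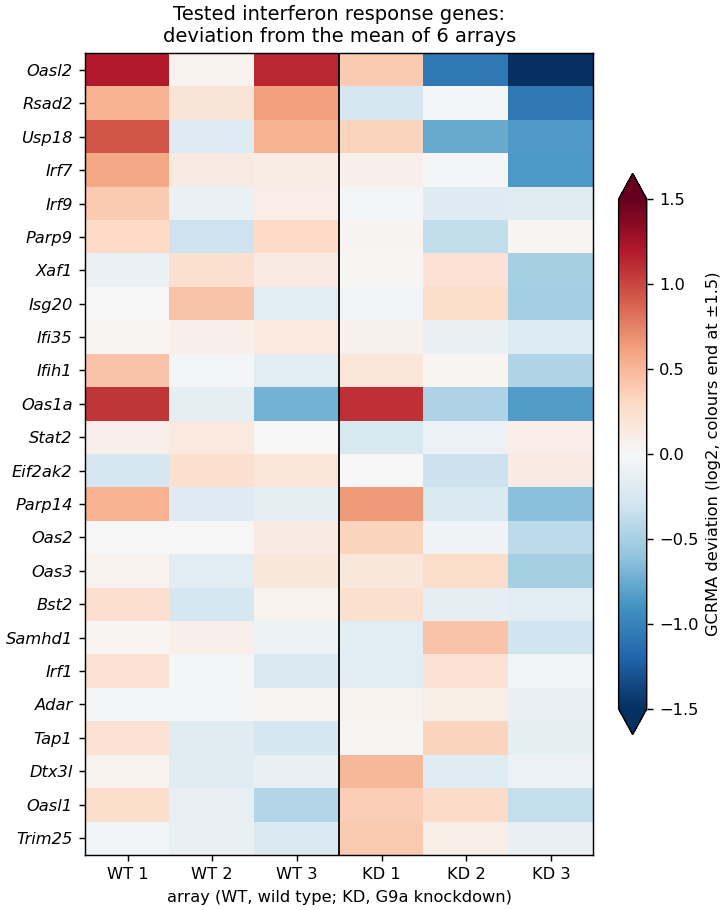
Deviation of each of the 24 tested members from its own mean over the 6 arrays (GCRMA, log2), with members ordered by their group difference from the most negative at the top. The column of knockdown array 3 is mostly blue, as the lowest array for 14 of 24 members, and Oas1a and Parp14 are high in both replicate 1 arrays.

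Among the antiviral effectors, Rsad2 encodes viperin, a radical SAM enzyme that makes a chain-terminating nucleotide. Rsad2 read 7.29, 6.96 and 7.38 in wild type and 6.52, 6.75 and 5.70 in the knockdown. The groups did not overlap, in GCRMA or in MAS5, and knockdown array 3 was the low one. The difference was -0.89 (-1.58 to -0.19, limma adjusted p = 0.302), or 1.85-fold lower, and -0.49 without replicate 3. At the other 2 tested Rsad2 probe sets it was -0.93 and -0.74, and at the dimmer of these, 1421008_at, the knockdown array of replicate 2 lay above its wild type partner. Rsad2 and Irf7 were the 2 of 24 members whose groups did not overlap with the knockdown lower, against 7.33% of all probe sets; 0 did so with the knockdown higher, against 5.04%.

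The other effectors showed little difference. Adar, the RNA editing enzyme that marks cellular double-stranded RNA as self, read 10.39, 10.38 and 10.43 in wild type and 10.46, 10.50 and 10.30 in the knockdown. At this probe set the 6 Adar arrays lay within 0.21 of each other, the narrowest range among the 24 tested members. The difference was 0.016 (-0.24 to 0.28). At 1425405_a_at, another tested Adar probe set, the values were 8.55, 7.79 and 7.48 in wild type and 7.69, 7.75 and 7.60 in the knockdown. The difference there was -0.26. The dimmest tested Adar probe set, 1439276_at, also varied more, with 3.75 and 4.15 in the replicate 1 arrays of wild type and knockdown and 5.35 to 6.44 in the others. Samhd1, which removes the deoxynucleotides that retroviruses need, read 8.94, 8.99 and 8.83 in wild type and 8.75, 9.34 and 8.61 in the knockdown, with the highest and the lowest array both in the knockdown. Bst2, the tether that holds budding virus at the cell surface, read 7.93, 7.43 and 7.73 in wild type and 7.92, 7.55 and 7.52 in the knockdown. The differences of Samhd1 and Bst2 were -0.018 and -0.034 with groups that overlapped, and both had the opposite sign in MAS5 (0.072 and 0.053). The exonuclease gene Isg20 differed by -0.18 and Eif2ak2, the kinase that halts translation on double-stranded RNA, by -0.13. Ifih1, which encodes the sensor MDA5, was the 1 tested sensor and differed by -0.16 (-0.44 to 0.12).

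Below the filter, Ifit1 read 2.48, 2.44 and 2.58 in wild type and 2.30, 2.36 and 2.38 in the knockdown. In MAS5 it read 187, 169 and 161 in wild type and 109, 108 and 109 in the knockdown. The groups lay apart in both summaries, but these share the same arrays and are not separate evidence. The GCRMA values spanned only 2.30 to 2.58, below the filter in every array, where signal carries little information on amount. How often groups lie apart among probe sets below the filter was not counted. Ifit1 was singled out after its values were seen, and it was not tested.

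In the ISG15 system, Usp18, the protease that removes ISG15 and restrains the interferon receptor, read 7.10, 5.96 and 6.67 in wild type and 6.49, 5.39 and 5.30 in the knockdown. Each knockdown array lay below its wild type partner, with differences of -0.61, -0.57 and -1.37, while the groups overlapped, knockdown array 1 lying above wild type array 2. The difference was -0.85 (-1.31 to -0.38), or 1.80-fold lower. Its limma adjusted p = 0.210 was the lowest on the list with the block, and 0.852 was the value without it. Usp18 differed by -0.59 without replicate 3 and by -0.55 in MAS5.

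Trim25, the ubiquitin ligase that activates the RNA sensor encoded by Ddx58, had the largest positive difference. It read 11.15, 11.08 and 10.98 in wild type and 11.59, 11.28 and 11.08 in the knockdown, higher in the knockdown at each number with groups that overlapped. The difference was 0.25 (-0.031 to 0.52, limma adjusted p = 0.405), and 0.20 and -0.09 at its other 2 tested probe sets. Dtx3l and Parp9 encode a ubiquitin ligase and the partner it binds. Dtx3l differed by 0.15, and by -0.16 at its other probe set, so its sign depended on the probe set. Parp9 read 8.41, 7.81 and 8.42 in wild type and 8.16, 7.75 and 8.15 in the knockdown, a little lower in the knockdown at each number. The low array of Parp9 was number 2 in both groups, and its difference was -0.19 in GCRMA and 0.0037 in MAS5. Parp14, a mono-ADP-ribosyltransferase, differed by -0.13 and was highest in both replicate 1 arrays.

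Of the remaining members, Ifi35 read 12.11, 12.16 and 12.23 in wild type and 12.14, 11.97 and 11.87 in the knockdown. Knockdown array 1 lay within the wild type range and the other 2 below it, for a difference of -0.18 (-0.47 to 0.11) that was -0.22 and -0.27 at its other probe sets and -0.0087 in MAS5. Xaf1, a gene that promotes apoptosis, read 9.39, 9.73 and 9.61 in wild type and 9.50, 9.70 and 8.99 in the knockdown. The low Xaf1 array was knockdown array 3, and its difference of -0.18 became 0.041 without replicate 3. Tap1, which carries peptides into the endoplasmic reticulum for class I presentation, differed by 0.14 (-0.26 to 0.53).

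**Figure D5:**
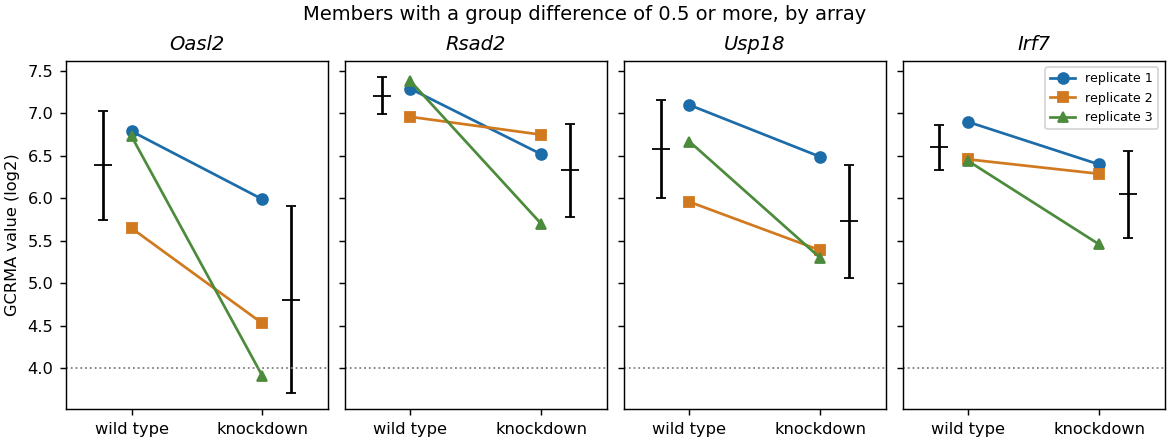
GCRMA log2 values of Oasl2, Rsad2, Usp18 and Irf7 in each array, with lines joining arrays that share a replicate number; black bars are the group mean ± SD (n = 3), and the dotted line is the filter at log2 4. Every line runs downward, and the line of replicate 3 falls furthest in all 4 genes.

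Other genes of the pathway were read from lists that did not overlap the members, and 0 were called by limma in any list. Of 31 tested further interferon targets, 17 were negative and 14 positive, with a median of -0.029, and 5 had an unadjusted limma p under 0.05, against 13.7% of all probe sets. Knockdown array 3 was the lowest for 12 of these 31, for 6 of 14 class I genes, 5 of 13 receptor and JAK-STAT genes, 3 of 14 sensing genes and 0 of 4 genes of other interferon regulatory factors, against 14.7% of all probe sets. Nmi, an interferon-induced partner of the protein encoded by Ifi35, read 8.55, 8.25 and 8.48 in wild type and 8.02, 7.54 and 7.76 in the knockdown. The Nmi groups did not overlap, and number 2 rather than number 3 was the low one in both, with a difference of -0.65 (limma adjusted p = 0.169). The immunity-related GTPase genes Igtp and Irgm2 differed by -0.39 and -0.33.

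Class I antigen processing genes were negative in 10 of 14, with a median of -0.041, while H2-K1 and H2-D1, which encode class I heavy chains, differed by 0.34 and 0.40. The chaperone gene Calr differed by -0.34. Receptor and JAK-STAT genes were negative in 6 of 13 with a median of 0.011, with Stat3 at -0.18 and the receptor genes Il10rb and Ifnar1 at 0.40 and 0.16. Nucleic acid sensing genes were negative in 7 of 14 with a median of 0.012. Among these the adaptor genes Myd88 and Mavs differed by 0.42 and -0.25, and Trim56, a ubiquitin ligase, by 0.43. All 4 tested genes of other interferon regulatory factors and their binding proteins were positive, with a median of 0.37. Irf5, Irf2bp2 and Irf2bp1 differed by 0.58, 0.45 and 0.28, and Irf2 by 0.19 (limma adjusted p = 0.218 to 0.515). In MAS5 the differences were 0.65, 0.20, 0.12 and 0.14. The Irf5 groups overlapped. Of the 4, 2 had an unadjusted limma p under 0.05, against 13.7% of all probe sets.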

How the data were processed

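RNA was measured on Affymetrix arrays, and each of the 6 hybridizations was deposited in 2 summaries, named in the labels: 6 columns of MAS5 intensity on a linear scale and 6 columns of GCRMA log2 values. The sources used here give neither program versions nor settings for them. The 2 summaries share arrays and were never counted as replicates. The 64 Affymetrix controls among 45101 probe sets were dropped. The platform's GEO annotation pairs 34958 probe sets with a single gene.

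Differences were fitted in R 4.3.3 with lmFit and eBayes of limma 3.58.1, with group and replicate number as terms, on the 17028 probe sets that exceeded log2 4 in 3 or more of the 6 arrays, with Benjamini-Hochberg adjustment over all of them and a threshold of 0.05. MAS5 was fitted as log2(value + 1). The pipeline was tested on simulated data. As a check of pairing, same-number arrays had correlated deviations from their group means (r = 0.718, 0.574 and 0.373, all over 0.1). Other pairs ranged from -0.591 to 0.169. Wild type 2 with knockdown 3 (0.128) and wild type 3 with knockdown 2 (0.169) also exceeded 0.1. The same-number value was the highest for each array. Since the 3 deviations in a group sum to 0, a distinct replicate 1 also shifts the values at numbers 2 and 3. The check is therefore weaker for those numbers. No label explains the numbering. With the block, leaving out 1 array gives the same difference as leaving out its pair.

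The members, lists and tests were chosen with earlier results of these data known. Array values are printed for tested members with a difference of at least 0.5, the 4 of highest mean signal and those whose sign differs in MAS5, and for Irf9, Oas1a, Oasl1, Dhx58, Ifit1 and Nmi, added after their values were seen. Of other pathway lists, up to 3 genes by lowest p are named, and Irf2 was added to complete its list. Alternatives were the fit without the block, MAS5 with another pseudocount, other filters, centring, array weights, averaged probe sets and arrays left out.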

Additional observations from a re-analysis of the deposited data

How the results depend on the processing

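The count of 0 called members held under every alternative run. Without the replicate block, 1 probe set was called in place of 2, and Ehmt2 at 1460692_at no longer passed (-2.87, limma adjusted p = 0.0719). In MAS5, 0 probe sets were called, with and without the block, and Ehmt2 differed by -2.71 and -2.46 (-2.41 and -2.42 with a pseudocount of 16). Without a filter 0 were called (Ehmt2 -2.86 and -2.87), and 4 with the filter at log2 5 or with array weights. With 1 array or 1 replicate number left out, 0 to 1 probe sets were called, Ehmt2 differed by -3.01 to -2.70 at 1426888_at (limma adjusted p = 0.0350 to 0.322) and by -3.06 to -2.61 at 1460692_at (0.0518 to 0.663), 9 to 20 members were negative, and the members' median was -0.22 to 0.033, turning positive without knockdown array 3 and without the block. The fits that leave out 1 array without the block were added after seeing the data.

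Small differences changed sign. In MAS5 these were Adar (-0.014), Irf1 (-0.18), Bst2 (0.053, or 0.050 with a pseudocount of 16), Parp9 (0.0037, or 0.0034) and Samhd1 (0.072). With array weights Bst2 and Samhd1 read 0.0038 and 0.063, and averaged over probe sets Adar and Samhd1 read -0.11 and 0.00051. With arrays left out, the ranges were -0.034 to 0.092 for Adar, -0.17 to 0.084 for Bst2, -0.10 to 0.22 for Irf1, -0.24 to 0.13 for Samhd1 and -0.33 to 0.041 for Xaf1. Oasl2, Rsad2, Usp18 and Irf7 stayed negative under every alternative run, and with arrays left out ranged from -2.17 to -0.96, -1.22 to -0.49, -1.23 to -0.59 and -0.74 to -0.26. The cause of these shifts was not tested. With 3 arrays per group, their number limits the precision, and genes near log2 4 have little signal above background.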
